A study of Mus musculus with 1790 samples.

Results

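GABA-A receptor subunit genes were followed through the interneurons of the mouse cortex and its embryonic sources. The set holds 7 of the 49915 gene symbols with a row in any table, given as a list of gene names with no threshold on their values: the alpha subunits Gabra2, Gabra3, Gabra4 and Gabra5, the beta subunits Gabrb1 and Gabrb2, and the delta subunit Gabrd. All 7 had a row in the P15, P30, patch-seq and droplet tables and 6 of 7 in the E14.5 microfluidic tables, in which Gabrd was not analysed here. A further 12 genes encode other subunits of the same family and served as context.

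GABA-A receptors are chloride channels opened by GABA, each built from several subunits around a central pore. Alpha and beta subunits together form the site that binds GABA, and the third kind of subunit sets where the receptor sits: receptors with gamma subunits gather at synapses, whereas receptors with the delta subunit lie outside them and carry a slow, persistent current at low GABA. The alpha4 subunit is the usual forebrain partner of delta, alpha5 is also known mainly from outside synapses, and alpha2 and alpha3 are typical of synapses and of the young brain. Neurogliaform cells (NGCs) are cortical interneurons that release GABA as a diffuse cloud and evoke slow inhibition, and GABA reaching receptors outside synapses is part of how they are known to act.

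The study collected single cells from the upper layers of somatosensory cortex at postnatal day (P) 15 and P30. All sorted mice carried an Htr3a-GFP transgene, which marks a large family of interneurons, together with Hmx3-Cre and the R26tdTOM reporter. The Hmx3-Cre allele marks cells of the preoptic area (POA), so that tdTOM+ GFP+ cells were sorted as NGCs and tdTOM- GFP+ cells as interneurons mostly of the caudal ganglionic eminence (CGE). Brains were pooled before sorting and no label names an animal. Each cell carries a subtype label that the authors transferred from an adult reference by its expression, which may include the genes described here, so differences between labelled classes are descriptions. Cells labelled Lamp5 Plch2 Dock5 are called Dock5+NGCs and cells labelled Lamp5 Lsp1 are called Lsp1+NGCs when they came from the tdTOM+ sort. Cells of the remaining Lamp5 subtypes ("other Lamp5") and of the Vip subtypes came from the tdTOM- sort unless stated otherwise. At P15 these groups held 36 Dock5+NGCs, 33 Lsp1+NGCs, 14 other Lamp5 cells and 63 Vip cells, and at P30 they held 76, 35, 21 and 47. A separate patch-seq set, in which RNA was drawn through the recording pipette in slices, held 20 Dock5+NGCs and 27 Lsp1+NGCs of P14 to P25. Patched tdTOM+ GFP+ cells came from mice of the same transgenic cross and from upper and deep cortical layers, unlike the sorted cells of the upper layers. At E14.5, wild-type POA and CGE were each captured as 1 droplet library (2106 and 4115 cells), and POA cells were also captured on microfluidic chips as 418 tdTOM+/GFP+ cells of the same transgenic cross and as 352 wild-type cells labelled with FlashTag, a dye that marks cells that had just divided at the ventricle.

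The RefSeq promoters of 3 members are shown, those of Gabra5, Gabra2 and Gabrb2, whose levels differed most between labelled classes after Gabrd. Each run holds the 250 bases before the annotated start (build GRCm38.p6), 5′ to 3′ on the strand of the gene, with matches to the searched motifs in capitals.
Gabra5, chr7:57510060-57510309, minus strand: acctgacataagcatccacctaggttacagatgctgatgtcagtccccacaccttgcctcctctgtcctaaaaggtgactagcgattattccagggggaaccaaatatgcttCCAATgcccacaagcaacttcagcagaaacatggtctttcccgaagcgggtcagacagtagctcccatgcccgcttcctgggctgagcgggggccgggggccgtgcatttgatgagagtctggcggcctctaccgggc
Gabra2, chr5:71095850-71096099, minus strand: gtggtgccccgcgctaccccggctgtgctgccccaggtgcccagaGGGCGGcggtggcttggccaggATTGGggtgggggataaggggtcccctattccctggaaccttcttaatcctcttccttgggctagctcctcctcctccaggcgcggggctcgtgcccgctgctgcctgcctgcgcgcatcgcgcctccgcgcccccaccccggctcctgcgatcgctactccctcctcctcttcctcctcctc
Gabrb2, chr11:42420190-42420439, plus strand: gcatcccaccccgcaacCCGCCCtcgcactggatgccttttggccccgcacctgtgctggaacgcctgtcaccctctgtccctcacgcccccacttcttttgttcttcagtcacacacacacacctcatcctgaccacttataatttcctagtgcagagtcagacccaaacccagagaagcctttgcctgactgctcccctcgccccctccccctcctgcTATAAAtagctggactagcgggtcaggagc
The Gabra5 window holds 1 CCAAT box, 138 to 134 bases before the start. The Gabra2 window had a GC content of 70.0% against a median of 52.4% over all windows, and holds a GC box (GGGCGG) and a CCAAT box. The Gabrb2 window lies within the annotated Gabrb2 gene, outside its exons, and holds a GC box and a TATA box (TATAAA) 30 to 25 bases before the start. Motifs were searched on both strands in all 32851 RefSeq windows of this length, and GGGCGG was found in 32.7% of them, CCAAT in 33.8%, TATAAA in 12.4% and the cyclic AMP response element TGACGTCA in 1.55%. Of the 10 windows of 6 members, 3 held GGGCGG, 6 held CCAAT, 3 held TATAAA and 0 held TGACGTCA. The Gabra3 windows (chrX:72656808-72657057 and chrX:72656920-72657169) overlap, and both count the same TATAAA site and the same CCAAT site. Such matches are letters in a window and not binding sites.

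In the genome (GRCm38, GENCODE genes), Gabra2 (chr5:70957597-71095849), Gabra4 (chr5:71569749-71658308) and Gabrb1 (chr5:71658113-72149037) stand side by side on chromosome 5, where Gabra4 and Gabrb1 run head to head and overlap at their starts. Counting used the strand, so this overlap does not mix reads of the 2 genes. Gabra5 lies at chr7:57407672-57510059, Gabra3 at chrX:72432681-72656848, Gabrb2 at chr11:42419757-42629028 and Gabrd at chr4:155384980-155398112.

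Levels are summed counts of a group scaled to a common total (CPM), with exact Poisson 95% intervals. A group counts as 1 sample because no label names an animal, and no test was run. The intervals cover counting error only, and they are narrow against the spread between cells, since 1 cell often held a large share of a gene's counts. Folds are log2 ratios after 10 CPM was added to both groups, and a gene is said to be past the fold when this value reached 1 in size and the larger of both levels was 10 CPM or more. The labels of patched cells give the age and a PSeq number of each cell, and cells of different ages are from different animals, but their subtype was read from expression by a support vector machine model trained on genes that differed between the sorted subtypes. Those genes include members of the set, so a direction shared by sorted and patched cells is not independent of the labels. The median cell of the sorted postnatal groups compared held between 206939 and 267282 counts. The labelled classes carried their markers: Ndnf was higher in Dock5+NGCs (3923 CPM at P15 against 991 CPM in Lsp1+NGCs), Npy was higher in Lsp1+NGCs (10384 CPM against 4193 CPM at P15), and Vip reached 7957 CPM at P15 in Vip cells. The Lsp1 transcript itself did not separate the sorted subtypes (13.0 CPM against 14.0 CPM at P15). Markers of glutamatergic cells, astrocytes, oligodendrocytes, microglia and vascular cells, each summed over those of 5 genes that had a row (1 to 5 of them), stayed at or below 73.6 CPM in the Dock5+NGC, Lsp1+NGC, other Lamp5 and Vip groups named above.

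Gabrd, the delta subunit, was the member with the largest fold between NGCs and Vip cells at both ages. At P15 its level was 251 CPM (95% interval 241 to 260.5) in Dock5+NGCs, 385 CPM (373 to 398) in Lsp1+NGCs, 96.3 CPM (87.4 to 106) in other Lamp5 cells and 12.4 CPM (10.9 to 14.2) in Vip cells. In single cells the lowest, median and highest values at P15 were 0, 153 and 998 CPM in Dock5+NGCs, 0, 240 and 1438 CPM in Lsp1+NGCs, 0, 54.1 and 275 CPM in other Lamp5 cells and 0, 0 and 132 CPM in Vip cells. The ranges overlapped at 0, yet the highest Vip cell lay below the median cell of either NGC subtype. At P30 the levels were 64.6, 141, 25.0 and 9.02 CPM in the same order of classes. The median P30 cell held 0 counts of Gabrd in Dock5+NGCs, other Lamp5 and Vip cells and 9.21 CPM in Lsp1+NGCs, so the summed P30 levels rested on part of the cells. In the other Lamp5 group at P30, 96.6% of the Gabrd counts came from 1 cell.

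**Figure D1:**
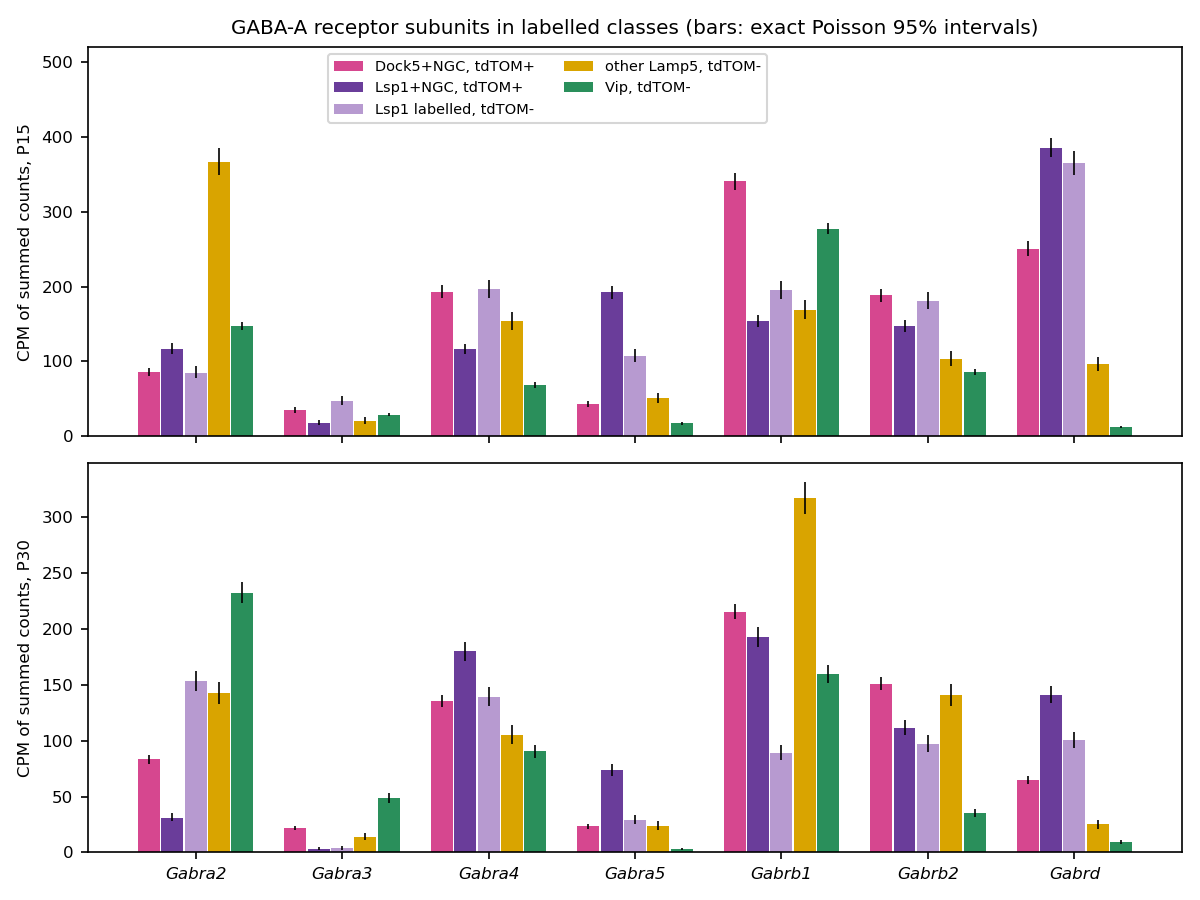
Summed CPM (linear axes, different ranges at P15 and P30) of the 7 members in Dock5+NGCs and Lsp1+NGCs of the tdTOM+ sort and in Lsp1 labelled, other Lamp5 and Vip cells of the tdTOM- sort. Thin bars are exact Poisson 95% intervals. Gabrd stood at 251 and 385 CPM in the NGC subtypes and at 12.4 CPM in Vip cells at P15, and Gabra2 reached its highest P15 level, 367 CPM, in other Lamp5 cells.

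Cells of the Lsp1 subtype were also found in the tdTOM- sort, which allows a look at Gabrd outside the fate-mapped cells. These Lsp1 labelled cells held 365 CPM (349 to 382) of Gabrd at P15 (20 cells) and 100.2 CPM at P30 (28 cells). The P15 interval overlaps that of the tdTOM+ Lsp1+NGCs. The 4 cells of the Dock5 subtype in the tdTOM- sort at P15 held 413 CPM, of which 68.4% came from 1 cell. Conversely, Vip cells found in the tdTOM+ sort held 13.9 CPM at P15 (24 cells) and 8.24 CPM at P30 (15 cells), with intervals that overlap those of Vip cells of the tdTOM- sort. At P30 the summed level of the Lsp1 labelled cells of the tdTOM- sort lay below that of Lsp1+NGCs (93.0 to 108 CPM against 134 to 149 CPM). These counting intervals leave out the spread between cells and animals. Among Vip subtypes with at least 5 cells, both sorts together, the highest Gabrd level was 33.4 CPM at P15 (Vip Igfbp6 Pltp, 96.9% of it in 1 cell) and 25.4 CPM at P30 (Vip Pygm C1ql1, 98.1% of it in 1 cell). Among the other Lamp5 subtypes it ran from 37.4 CPM (Lamp5 Ntn1 Npy2r) to 81.6 CPM (Lamp5 Fam19a1 Pax6) at P15 and from 2.53 CPM (Lamp5 Fam19a1 Pax6) to 53.9 CPM (Lamp5 Fam19a1 Tmem182, 99.3% of it in 1 cell) at P30. The subtype with the most Gabrd was Lamp5 Lsp1 at both ages.

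Gabra5, the alpha subunit known mainly outside synapses, was highest in the Lsp1 subtype at P15. Its level at P15 was 192 CPM (183 to 201) in Lsp1+NGCs, 43.4 CPM (39.5 to 47.5) in Dock5+NGCs, 50.8 CPM (44.4 to 57.9) in other Lamp5 cells and 17.2 CPM (15.3 to 19.2) in Vip cells. The summed levels of Dock5+NGCs and other Lamp5 cells lay close, with overlapping intervals. Such intervals leave out the spread between cells and animals and cannot decide an order of classes. At P30 the levels were 73.6, 23.3, 23.5 and 3.11 CPM in the same order, again with Dock5+NGCs and other Lamp5 cells side by side. In single cells at P15 the lowest, median and highest values were 0, 30.8 and 1697 CPM in Lsp1+NGCs, 0, 0 and 284 CPM in Dock5+NGCs and 0, 0 and 365 CPM in Vip cells. At least 1 Vip cell thus held more Gabra5 than any Dock5+NGC, although the median cell of both groups held none. With every P15 cell thinned to 131100 counts, Gabra5 was detected in 65.6% of Lsp1+NGCs (21 of 32, exact interval 46.8% to 81.4%), 37.5% of Dock5+NGCs (12 of 32, 21.1% to 56.3%) and 20.8% of Vip cells (11 of 53, 10.8% to 34.1%). Without thinning the shares were 66.7%, 44.4% and 25.4%.

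Lsp1 labelled cells of the tdTOM- sort held less Gabra5 than the fate-mapped ones, 108 CPM at P15 and 29.1 CPM at P30, with 46.2% of the P15 counts in 1 cell. The 4 Dock5 labelled cells of the tdTOM- sort held 0 counts, which allows up to 1.77 CPM. Vip cells did not behave alike in the sorts: at P30, Vip cells of the tdTOM+ sort held 59.0 CPM, of which 46.4% came from 1 of 15 cells, against 3.11 CPM in the tdTOM- sort. Among Vip subtypes of both sorts, Gabra5 reached 89.6 CPM at P15 in Vip Chat Htr1f (6 cells) and 81.0 CPM at P30 in Vip Ptprt Pkp2 (7 cells), and lay at 0 counts in Vip Crispld2 Kcne4 and Vip Igfbp6 Pltp at P30. In both of the high Vip subtypes at least 50.0% of the counts came from 1 cell.

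**Figure D2:**
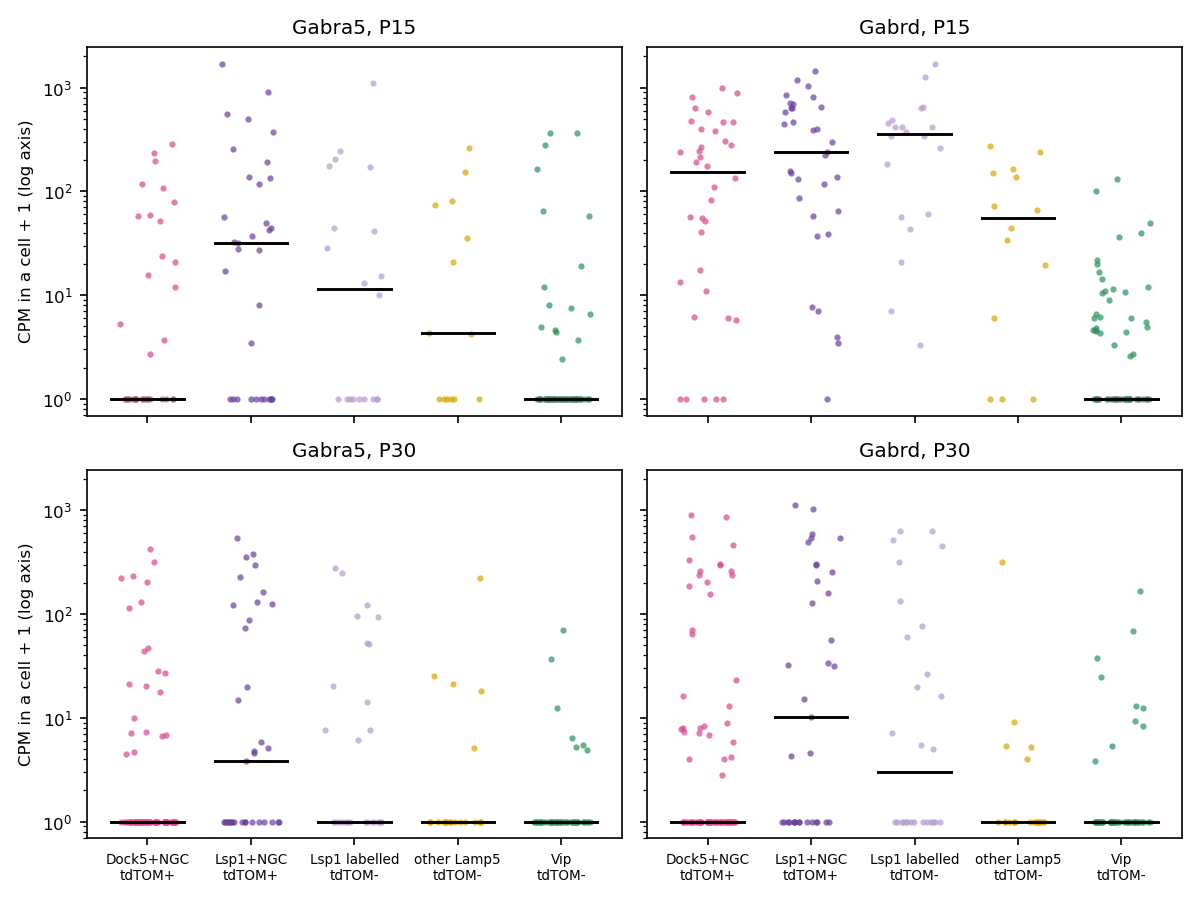
CPM + 1 of Gabra5 and Gabrd in every cell (points, log axis) of the 5 groups at P15 and P30, with the median cell of each group as a black line. For Gabrd at P15 the median lines lie at 153 and 240 CPM in the NGC subtypes, above the highest Vip cell at 132 CPM, and for Gabra5 the ranges overlap in every panel.

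Gabra4, the usual forebrain partner of delta, was broadly present. At P15 its level was 193 CPM (185 to 202) in Dock5+NGCs, 117 CPM (110.1 to 124) in Lsp1+NGCs, 154 CPM (142 to 166) in other Lamp5 cells and 68.2 CPM (64.4 to 72.2) in Vip cells. At P30 it was 135 CPM, 179.8 CPM, 105 CPM and 90.3 CPM. The order of Dock5+NGCs and Lsp1+NGCs was thus opposite at the 2 ages. In single cells at P15 the lowest, median and highest values were 0, 71.8 and 2474 CPM in Dock5+NGCs, 0, 75.9 and 558 CPM in Lsp1+NGCs and 0, 20.6 and 1031 CPM in Vip cells. The median Dock5+NGC held no more Gabra4 than the median Lsp1+NGC, and 25.8% of the Dock5+NGC counts came from 1 cell.

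Of the alpha subunits typical of synapses and of the young brain, Gabra2 was not enriched in NGCs. For Gabra3 the class with the highest level differed between the ages. At P15 Gabra2 stood at 85.4 CPM in Dock5+NGCs, 117 CPM in Lsp1+NGCs, 367 CPM in other Lamp5 cells and 147 CPM in Vip cells, and 50.4% of the counts of other Lamp5 cells came from 1 of 14 cells. At P30 it stood at 83.4, 31.2, 143 and 232 CPM. In single cells at P30 the lowest, median and highest values of Gabra2 were 0, 1.58 and 826 CPM in Dock5+NGCs, 0, 4.34 and 282 CPM in Lsp1+NGCs, 0, 48.7 and 1014 CPM in other Lamp5 cells and 0, 26.3 and 1485 CPM in Vip cells. The NGC medians were the lowest of the 4 and the ranges overlapped. Other Lamp5 cells of the tdTOM+ sort also held more Gabra2 than the NGC subtypes beside them, 301 CPM at P15 and 192 CPM at P30. Gabra3 gave few counts: it ran from 18.2 CPM (Lsp1+NGCs) to 35.1 CPM (Dock5+NGCs) at P15 and from 3.46 CPM (Lsp1+NGCs) to 48.8 CPM (Vip cells) at P30, with a median cell of at most 1.56 CPM in these 4 classes at both ages.

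The beta subunits were spread over all classes. Gabrb1 at P15 stood at 340.3 CPM (329 to 352) in Dock5+NGCs, 154 CPM (146 to 162) in Lsp1+NGCs, 169 CPM (157 to 181) in other Lamp5 cells and 277 CPM (269.5 to 285) in Vip cells. At P30 Gabrb1 stood at 215, 192, 317 and 159 CPM, so that other Lamp5 cells stood in the third place of 4 at P15 and in the first at P30. Gabrb1 was detected in most cells, in 97.2% of Dock5+NGCs and 85.7% of Vip cells at P15, with single-cell ranges of 0 to 1946 CPM and 0 to 1394 CPM. Gabrb2 at P15 stood at 188 CPM in Dock5+NGCs, 147 CPM in Lsp1+NGCs, 103 CPM in other Lamp5 cells and 85.8 CPM in Vip cells, and at P30 at 151, 111, 141 and 34.8 CPM in the same order. The median cell held 0 counts of Gabrb2 among Vip cells at both ages and 103 CPM among Dock5+NGCs at P15. Gabrb2 varied widely among Vip subtypes of both sorts, from 0.917 CPM (Vip Lect1 Oxtr) to 147 CPM (Vip Ptprt Pkp2) at P15.

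Comparing the NGC subtypes at P15, Gabra5 was lower and Gabrb1 higher in Dock5+NGCs, and the delta subunit differed less. The log2 fold of Dock5+NGCs over Lsp1+NGCs was -1.92 for Gabra5 (counting interval -2.09 to -1.75) and 1.09 for Gabrb1 (0.98 to 1.21), and it was -0.60 for Gabrd, 0.68 for Gabra3, 0.68 for Gabra4, 0.33 for Gabrb2 and -0.41 for Gabra2. The median over the members was 0.33, against -0.01 over all genes compared. Past the fold were 1 of 7 members on either side, Gabrb1 higher in Dock5+NGCs and Gabra5 higher in Lsp1+NGCs. Of the 8910 genes with at least 10 CPM in either subtype, 9.66% were past the fold on the Dock5+NGC side and 9.63% on the Lsp1+NGC side. Taking the mean of single cells in place of summed counts left Gabrb1 at 0.65 and Gabra5 at -1.91. Within chip rows 1 to 20 and 21 to 40 the fold of Gabra5 was -1.35 and -1.98.

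At P30 the NGC subtypes differed in 4 of 7 members. Gabra2 (log2 fold 1.18, 0.99 to 1.37) and Gabra3 (1.24, 1.01 to 1.46) were higher in Dock5+NGCs, and Gabra5 (-1.33, -1.52 to -1.14) and Gabrd (-1.02, -1.16 to -0.88) were higher in Lsp1+NGCs. Of 10184 genes, 10.7% were past the fold on the Dock5+NGC side and 8.65% on the Lsp1+NGC side, so 2 of 7 members on either side is a larger share than the background, in a list too short for a share to be firm. Gabra4 (-0.39), Gabrb1 (0.15) and Gabrb2 (0.41) were not past the fold, and the median over the members was 0.15, against 0.01 over all genes compared. When Lsp1 labelled cells of both sorts were summed, Gabra2 was level between the subtypes (0.01, 83.4 against 82.7 CPM), because Lsp1 labelled cells of the tdTOM- sort held 153 CPM of it against 31.2 CPM in those of the tdTOM+ sort. Without the cell with the largest count in each group, Gabrd lay at -0.81. In chip rows 1 to 20, which held 13 of the 35 Lsp1+NGCs, Gabra5 lay at -0.54.

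**Figure D3:**
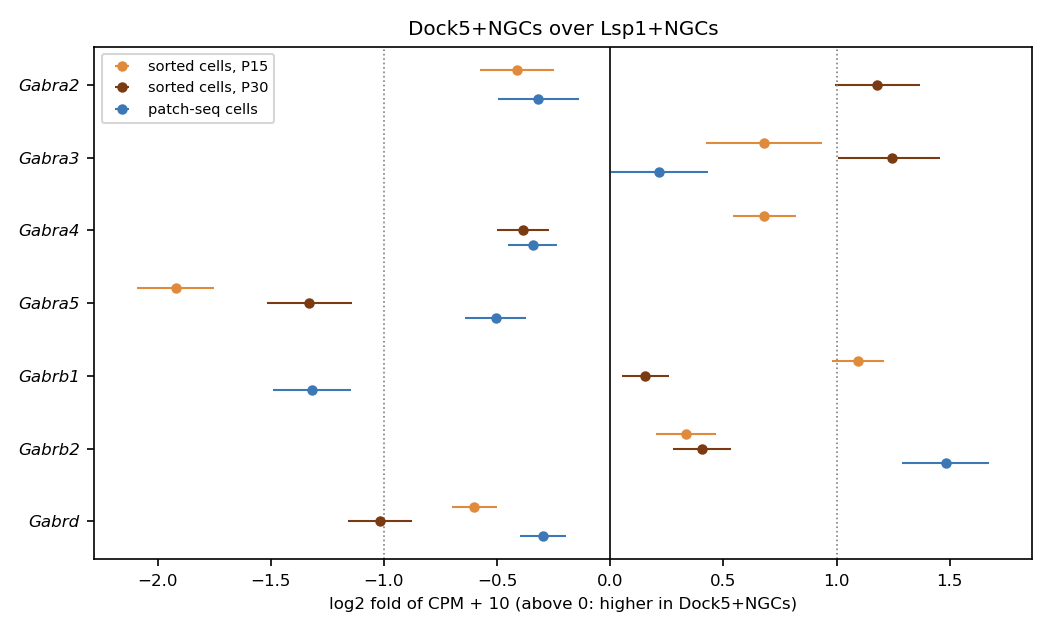
Log2 fold of CPM + 10 of Dock5+NGCs over Lsp1+NGCs for each member in sorted cells of P15, sorted cells of P30 and patch-seq cells; lines are counting intervals and dotted lines mark 1 and -1. Gabra5 and Gabrd lie below 0 in all 3 sets, from -1.92 to -0.51 and from -1.02 to -0.30, though within PSeq numbers of the patched cells Gabrd lay on both sides of 0, while Gabra2, Gabra4 and Gabrb1 lie on both sides of 0. Patched cells were labelled by a model whose genes include members, so a direction shared with sorted cells is not independent.

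In patch-seq cells Gabrb2 and Gabrb1 were the members past the fold between the subtypes on summed counts. Neither was past it with the mean of single cells. The summed fold of Gabrb1 was opposite in sign to that of sorted cells. Gabrb2 stood at 32.1 CPM in Dock5+NGCs and 5.06 CPM in Lsp1+NGCs (log2 fold 1.48, 1.29 to 1.68), and Gabrb1 stood at 32.1 CPM and 94.9 CPM (-1.32, -1.49 to -1.15). Of 9966 genes, 7.63% were past the fold on the Dock5+NGC side and 10.6% on the Lsp1+NGC side, and of the members 1 of 7 was on either side (median -0.32, against 0.04 over all genes compared). In so short a list this count does not stand apart from the shares over all genes. Among Dock5+NGCs 6 of 20 held Gabrb2, among Lsp1+NGCs 10 of 27, with single cells of up to 161 and 67.1 CPM and a median of 0 in both, so its fold came from a few cells. Gabrb1 was above 0 in 10 of 20 Dock5+NGCs (lowest 0, median 0.977, highest 248 CPM) and in 21 of 27 Lsp1+NGCs (lowest 0, median 47.4, highest 225 CPM). The ranges overlapped for both genes. The mean of single cells in place of summed counts gave 0.86 for Gabrb2 and -0.57 for Gabrb1. Each of the 8 PSeq numbers, which stand in the labelled names of the sequencing files, held cells of both subtypes, 1 to 5 of each. Age was not matched within all of them: in PSeq03 the Dock5+NGCs were of P25 and the Lsp1+NGCs of P15. Within these numbers the log2 fold of Gabrb1 was below 0 in 6 of 8 (median -1.99, from -3.39 to 2.95), and that of Gabrb2 was above 0 in 4 of 8 and below 0 in 2, with no count in either subtype in the other two.

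Of the patched Dock5+NGCs 19 of 20 held Gabrd, and all 27 Lsp1+NGCs did, with lowest, median and highest cells of 0, 168 and 670.2 CPM and of 4.23, 232 and 777 CPM, and log2 fold -0.30 (-0.40 to -0.20). Within the PSeq numbers the fold of Gabrd lay above 0 in 4 of 8 and below 0 in the other 4, from -4.92 to 1.498, and that of Gabra5 lay below 0 in 6 of 8 (median -1.17). Gabra4 was found in 13 of 20 and 26 of 27 cells, with medians of 76.6 and 207 CPM and log2 fold -0.34 (-0.45 to -0.23), which was -1.27, past the fold, after thinning and -0.98 with the mean of single cells. Within the PSeq numbers it was below 0 in 5 of 8, with a median of -1.18. After thinning to 101700 counts Gabra4 remained in 9 of 17 Dock5+NGCs (52.9%, 27.8% to 77.0%) and 23 of 25 Lsp1+NGCs (92.0%, 74.0% to 99.0%). The alpha4 subunit was thus the member whose detection differed most between the patched subtypes after thinning, and its sorted counterpart at P15 leaned the other way (96.9% in Dock5+NGCs, 75.0% in Lsp1+NGCs). Gabra2 depended on 1 deep cell: its log2 fold was -0.32 over all cells and 0.75 without the deepest cell of each subtype, since 69.6% of the Lsp1+NGC counts came from 1 cell. Thinned sums, which take the same depth from each cell, gave 1.36, the mean of single cells gave 0.91, and the PSeq numbers fell on both sides of 0, 4 on each. That cell held 30.0% of all counts of the patched Lsp1+NGCs.

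By age, patched Dock5+NGCs held 270 CPM of Gabrd at P14 to P16 (7 cells), 81.4 CPM at P17 to P18 (7 cells) and 178 CPM at P19 to P25 (6 cells), and Lsp1+NGCs held 169, 243 and 203 CPM (12, 11 and 4 cells). No order by age was seen in Gabrd. Gabra5 was found in all 4 of the oldest Lsp1+NGCs, at 86.4 to 257 CPM, and in 2 of the 6 oldest Dock5+NGCs, at up to 179 CPM. Markers of other cells were present in the patched samples, and their summed levels were higher in Lsp1+NGCs. The 5 oligodendrocyte lineage genes summed to 1226 CPM in Dock5+NGCs (single cells 114 to 5438 CPM) and 5869 CPM in Lsp1+NGCs (4.83 to 13749 CPM). The 5 astrocyte genes summed to 307 and 405 CPM, the 5 microglia genes to 163 and 366 CPM, and the 5 glutamatergic genes to 23.6 and 244 CPM. In the median cell the order was the opposite for oligodendrocyte lineage (803 against 652 CPM) and astrocyte genes (39.2 against 15.5 CPM). It was the same for microglia (2.25 against 16.9 CPM) and glutamatergic genes (3.99 against 5.51 CPM). No gene of these 4 lists was at 0 in either subtype. The 5 vascular genes summed to 4.90 CPM (Cldn5 and Kdr at 0) and 40.7 CPM, with median cells at 2.24 and 0.964 CPM. Mitochondrial counts exceeded 15% in 3 Lsp1+NGCs and 0 Dock5+NGCs. The median patched Dock5+NGC held 378452 counts, against 1037400 for Lsp1+NGCs. The part of these differences in the subunit values was not tested.

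Set against Vip cells at P15, NGCs held more Gabrd, Gabra5 and Gabra4, the subunits known for receptors outside synapses. The log2 folds of summed NGCs over Vip cells were 3.86 for Gabrd (3.71 to 4.00), 2.20 for Gabra5 (2.04 to 2.35) and 1.09 for Gabra4 (0.97 to 1.21), and without added CPM Gabrd was 25.3-fold higher. These 3 of 7 members were past the fold on the NGC side and 0 of 7 on the Vip side. Of 9114 genes, 8.01% were past the fold on the NGC side and 9.41% on the Vip side. Gabrb2 (0.90), Gabra3 (-0.07), Gabrb1 (-0.14) and Gabra2 (-0.50) were not past the fold. The median over the members was 0.90, against -0.02 over all genes compared. Sort and class are confounded in this pair, and with Vip cells of the same tdTOM+ sort the folds were 3.77 for Gabrd, 2.08 for Gabra5, 1.02 for Gabra4 and 2.29 for Gabrb2. Within the tdTOM- sort, Lsp1 labelled cells over Vip cells gave 4.06 for Gabrd and 2.11 for Gabra5.

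At P30 Gabrd (log2 fold 2.40, 2.21 to 2.59), Gabra5 (1.94, 1.74 to 2.12) and Gabrb2 (1.72, 1.56 to 1.88) were higher in NGCs, and Gabra2 (-1.68, -1.79 to -1.57) and Gabra3 (-1.20, -1.39 to -1.01) were higher in Vip cells. Of 10404 genes, 12.7% were past the fold on the NGC side and 10.5% on the Vip side, against 3 and 2 of 7 members, and the median was 0.68 over the members and 0.05 over all genes compared. Against Vip cells of the tdTOM+ sort, Gabrd (2.46) and Gabra2 (-1.45) were again past the fold, whereas Gabrb2 lay at 0.26 and Gabra5 at -0.45, that is, below the Vip cells, Gabra3 (-0.74) was no longer past the fold and Gabra4 (2.24) was. Those 15 Vip cells held 113 CPM of Gabrb2, 47.5% of it in 1 cell. Within the tdTOM- sort, Lsp1 labelled over Vip cells gave 2.53 for Gabrd, 1.58 for Gabra5, 1.26 for Gabrb2 and -0.57 for Gabra2.

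Between NGCs and other Lamp5 cells, Gabrd and Gabra2 were the members past the fold at both ages. The Gabra2 difference did not hold in all settings given below. At P15 the log2 folds of NGCs over other Lamp5 cells were 1.61 for Gabrd (1.45 to 1.77), 1.03 for Gabra5 (0.82 to 1.25) and -1.77 for Gabra2 (-1.89 to -1.64). Past the fold were 2 of 7 members on the NGC side, against 14.7% of 8907 genes, and 1 of 7 on the other Lamp5 side, against 9.61%. At P30 Gabrd (1.52, 1.30 to 1.74) was higher in NGCs and Gabra2 (-1.01, -1.16 to -0.86) in other Lamp5 cells, 1 of 7 on either side, against 17.7% and 10.9% of 10222 genes. The P30 counts are thus close to the shares over all genes. The median over the members was 0.55 at P15 and 0.10 at P30, against 0.06 and 0.08 over all genes compared. With other Lamp5 cells of the tdTOM+ sort the folds of Gabrd were 2.54 at P15 and 1.35 at P30, and those of Gabra2 were -1.49 and -1.41. Within the tdTOM- sort, Lsp1 labelled over other Lamp5 cells gave 1.82 and 1.65 for Gabrd, and -1.99 and 0.10 for Gabra2, so the Gabra2 difference at P30 was not seen there. Gabra5 in chip rows 1 to 20 at P15 lay at -0.48, with 6 other Lamp5 cells. Gabra2 at P15 lay at -2.51 in the same rows and at -0.55, not past the fold, in chip rows 21 to 40, with 8 other Lamp5 cells.

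**Figure D4:**
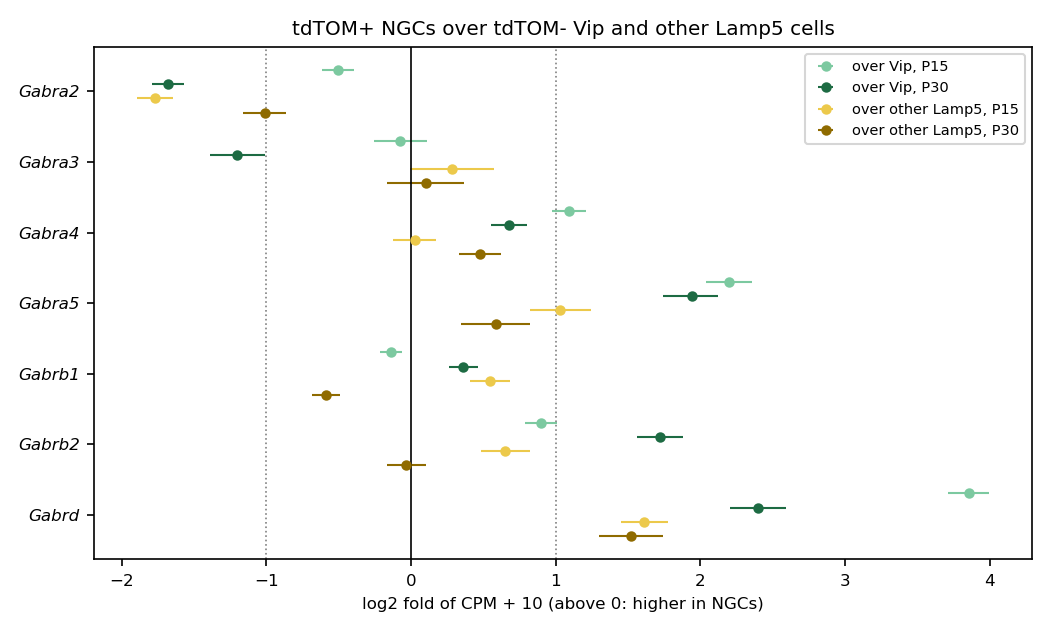
Log2 fold of CPM + 10 of tdTOM+ NGCs (both subtypes summed) over tdTOM- Vip cells and over tdTOM- other Lamp5 cells at P15 and P30; lines are counting intervals and dotted lines mark 1 and -1. Gabrd lies between 1.52 and 3.86 in all 4 comparisons and Gabra2 between -1.77 and -0.50.

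Whether single cells held several of these subunits at once was counted after thinning. At P15 both Gabra5 and Gabrd were detected in 19 of 32 Lsp1+NGCs, 11 of 32 Dock5+NGCs, 5 of 14 other Lamp5 cells and 4 of 53 Vip cells. Both Gabra4 and Gabrd were detected in 25 of 32 Dock5+NGCs, 21 of 32 Lsp1+NGCs, 10 of 14 other Lamp5 cells and 9 of 53 Vip cells. The pair of Gabra4 and Gabrd was thus held by most NGCs and most other Lamp5 cells and by few Vip cells at P15. Whether the pair was more frequent than the detection of each gene alone would give was not tested. At P30 (thinned to 137300 counts) the Gabra4 and Gabrd pair was seen in 19 of 66 Dock5+NGCs, 13 of 34 Lsp1+NGCs, 2 of 20 other Lamp5 cells and 6 of 38 Vip cells. The Gabra5 and Gabrd pair was seen in 5 of 66, 9 of 34, 1 of 20 and 2 of 38. In patch-seq the Gabra4 and Gabrd pair was seen in 21 of 25 Lsp1+NGCs, against 7 of 17 Dock5+NGCs. The median cell held 5 of the 7 members in either NGC subtype and 3 in Vip cells at P15. At P30 it held 3 in Dock5+NGCs, 4 in Lsp1+NGCs and 3 in Vip cells.

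Across the 14 postnatal groups of class and sort with at least 10 cells, Gabrd moved with Gabra5 (Pearson r = 0.691 of log2 CPM centred within each age), Gabra4 (0.657) and Gabrb2 (0.585) and against Gabra2 (-0.505). The groups share tables, sorts and depth, so these values are descriptions. Of 5696 genes compared, those like Gabrd included Itpr1 (0.954), a calcium channel of internal stores, and Tmeff1 (0.943). The genes most like Gabra5 were Bach2 (0.931), Pls3 (0.873) and Nav2 (0.850), and those most like Gabra4 were Mef2a (0.935), Phactr1 (0.900) and Arid2 (0.887). For Gabrb2 they were Qk (0.922), Dusp8 (0.919) and Cplx3 (0.896), for Gabrb1 Eif3d (0.894), Hrh1 (0.885) and Cnih3 (0.829), and for Gabra2 Kdm7a (0.938), Hjurp (0.804) and Brf1 (0.785). Gabra3 did not reach 50 CPM in a group at both ages, and its list was Brd1 (0.941), Tmem131 (0.878) and Rfwd2 (0.830). High values are usual among so many genes over 14 points.

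Of the remaining subunits with at least 10 CPM, a smaller share than of the members was past the fold between the sorted postnatal classes. This was not so between the patched subtypes. Members and lists were chosen with earlier results of these data known, so this contrast is a description only. Of the 12 other subunits, 4 had at least 10 CPM in Dock5+NGCs or Lsp1+NGCs at either age and 0 were past the fold on either side (median log2 fold -0.04 at P15 and 0.19 at P30, against -0.01 and 0.01 over all genes compared). In NGCs against Vip cells, 0 of 4 were past the fold at P15 and 1 of 5 at P30, Gabrr2, a rho subunit with 0 counts in NGCs and 13.9 CPM in Vip cells. In NGCs against other Lamp5 cells, 1 of 4 was past the fold at P15 and 0 of 4 at P30. That gene was Gabrg3, a gamma subunit, at 379 against 101 CPM. Over all genes 10.5% were past the fold on the Vip side at P30, and 14.7% on the NGC side against other Lamp5 cells at P15. In patch-seq 1 of 5 other subunits was past the fold on either side, against 7.63% and 10.6% of all genes. Their median log2 fold was -0.41, against -0.32 over the members. Gabrg1, a gamma subunit, was the one higher in Lsp1+NGCs (19.9 against 3.06 CPM).

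Among 12 genes of the inhibitory synapse, Slitrk3, an adhesion protein of inhibitory synapses, was past the fold in all 6 comparisons of sorted cells. It stood at 57.0 against 18.0 CPM between Dock5+NGCs and Lsp1+NGCs at P15, at 60.7 and 9.46 CPM at P30, and at 238 CPM in Vip cells and 116 CPM in other Lamp5 cells at P15 against 38.3 CPM in summed NGCs. At P30 it stood at 43.3 CPM in NGCs, 159 CPM in Vip cells and 158 CPM in other Lamp5 cells. Gphn, the scaffold gephyrin, was higher in Vip cells at P30 (137 against 42.5 CPM). The list held 1 of 12 genes past the fold on the Dock5+NGC side at P15 and 2 of 12 at P30 (Slitrk3 and Plcl1), with 0 of 12 on the Lsp1+NGC side at both ages, and its median log2 fold was 0.00 and 0.05. Over all genes the shares were 9.66% and 10.7% on the Dock5+NGC side and 9.63% and 8.65% on the Lsp1+NGC side. Against Vip cells, 0 of 12 were higher in NGCs at either age and 1 of 12 and 2 of 12 were higher in Vip cells (medians -0.23 and -0.17, against -0.02 and 0.05 over all genes), and against other Lamp5 cells 0 of 12 were higher in NGCs and 1 of 12 and 2 of 12 lower (medians 0.05 and -0.39, against 0.06 and 0.08). Over all genes 9.41% and 10.5% were higher in Vip cells and 8.01% and 12.7% in NGCs. In the other Lamp5 comparison 9.61% and 10.9% of all genes were lower in NGCs and 14.7% and 17.7% higher. In patch-seq Shisa7 (29.9 against 7.84 CPM) and Iqsec3 (26.4 against 4.04 CPM) were past the fold on the Lsp1+NGC side, and 0 of 12 were on the other. There the shares over all genes were 10.6% on the Lsp1+NGC side and 7.63% on the Dock5+NGC side.

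Of the metabotropic GABA-B receptor genes, Gabbr2 was past the fold over Vip cells at both ages. Gabbr2, the subunit that couples the receptor to G proteins, stood at 2565 CPM in NGCs and 884 CPM in Vip cells at P15 and at 2458 and 876 CPM at P30. At P30 the auxiliary subunit Kctd16 was higher in NGCs (18.9 against 0.776 CPM) and Kctd12 was higher in Vip cells (129 against 10.9 CPM) and in other Lamp5 cells (121 CPM). Of the GABA-B genes with at least 10 CPM, 1 of 3 was past the fold on the NGC side against Vip cells at P15 and 2 of 4 at P30, with 0 of 3 and 1 of 4 on the other side. Over all genes the shares were 8.01% and 12.7% on the NGC side and 9.41% and 10.5% on the Vip side. Between Dock5+NGCs and Lsp1+NGCs 0 of 3 at P15 and 0 of 4 at P30 and in patch-seq were past the fold. Against other Lamp5 cells 0 of 3 were past the fold at P15 and 1 of 4 on either side at P30 (Kctd16 and Kctd12). Over all genes at P30 the shares were 17.7% on the NGC side and 10.9% on the other.

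At E14.5, droplet cells were divided by whether counts of progenitor genes or of post-mitotic GABAergic genes were larger, which gave 539 progenitor-like and 1558 post-mitotic-like cells in the POA and 1336 and 2738 in the CGE. The median depth was 7574 counts in the POA and 5710 in the CGE, 12 cell barcodes occurred in both libraries, and 273 of 2106 POA cells and 615 of 4115 CGE cells had marker sums within a factor of 2 of each other. With 1 library per region, region and library cannot be told apart.

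Of the members, Gabra5 differed most between the embryonic regions on the scale with 10 CPM added. In post-mitotic-like cells Gabra5 stood at 21.8 CPM (19.6 to 24.1) in the POA and 4.62 CPM (3.66 to 5.76) in the CGE, a log2 fold of 1.12 (0.91 to 1.32). Gabrb1 stood at 14.46 and 3.10 CPM (0.90), Gabra3 at 13.7 and 7.96 CPM (0.40) and Gabra2 at 26.9 and 35.6 CPM (-0.31). Gabra5 was the 1 of 4 members with at least 10 CPM that was past the fold on the POA side and 0 of 4 were on the CGE side, against 2.13% and 1.24% of 8932 genes. After thinning to 3200 counts, Gabra5 was detected in 5.26% of POA cells (82 of 1558, exact interval 4.21% to 6.49%) and 1.42% of CGE cells (33 of 2329, 0.977% to 1.98%), and without thinning in 13.5% and 2.56%. In CGE progenitor-like cells it was detected in 4 of 1171 thinned cells, the lowest share among these groups.

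From progenitor-like to post-mitotic-like POA cells Gabra5 went from 3.69 to 21.8 CPM (log2 fold 1.21, 0.90 to 1.49) and Gabra2 from 13.1 to 26.9 CPM (0.67). Past the fold was 1 of 4 members with at least 10 CPM on the post-mitotic-like side and 0 of 4 on the progenitor-like side, against 2.69% and 5.34% of 9443 genes. In the CGE Gabra2 went from 8.83 to 35.6 CPM (1.28, 1.04 to 1.51) and was the only member with at least 10 CPM there, 1 of 1 on the post-mitotic-like side and 0 of 1 on the other, against 5.12% and 5.66% of 9114 genes. Gabra4 and Gabrb2 stayed below 4 CPM in these POA and CGE groups. Gabrd had 1 count in the POA library and 2 in the CGE library, so it was at the limit of detection in both regions at E14.5.

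On the microfluidic chips, POA tdTOM+/GFP+ cells held more of 4 members than FlashTag+ cells. Gabra2 stood at 40.2 against 9.39 CPM (log2 fold 1.37, 1.30 to 1.44), Gabra3 at 30.2 against 3.86 CPM (1.53, 1.46 to 1.60), Gabra5 at 26.6 against 2.46 CPM (1.555, 1.49 to 1.62) and Gabrb1 at 27.1 against 3.12 CPM (1.498, 1.43 to 1.57). These were all 4 members with at least 10 CPM in either collection, and 0 of 4 were higher in FlashTag+ cells, against 7.53% and 15.3% of 10438 genes past the fold. Gabra4 (2.31 against 1.87 CPM) and Gabrb2 (9.41 against 6.88 CPM) stayed below 10 CPM. After thinning to 169500 counts, Gabra5 was detected in 21.2% of tdTOM+/GFP+ cells (86 of 405, 17.4% to 25.5%) and 1.04% of FlashTag+ cells (3 of 288, 0.215% to 3.01%), and without thinning in 24.4% and 1.42%. Most tdTOM+/GFP+ cells thus held no count of it, and the median cell of both collections held 0 counts of each of the 6 members analysed. Collections, stage and chips cannot be told apart: by the same marker sums 412 of 418 tdTOM+/GFP+ cells were post-mitotic-like and 301 of 352 FlashTag+ cells were progenitor-like.

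**Figure D5:**
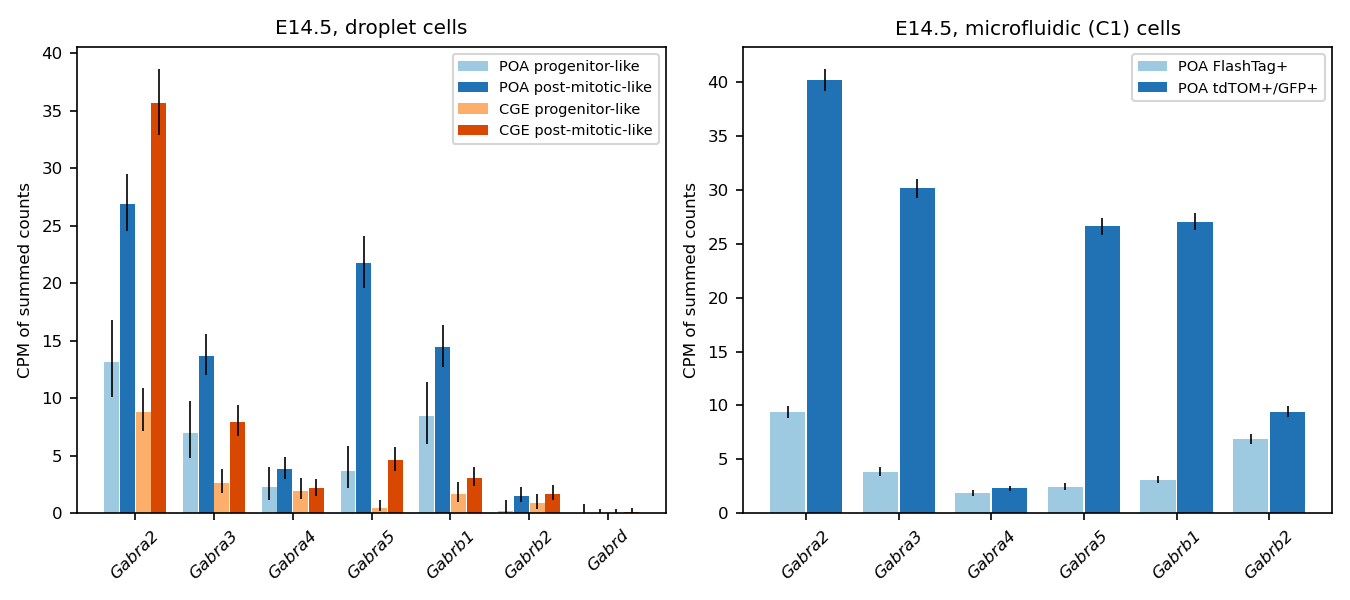
Summed CPM at E14.5 of each member in droplet cells of the POA and CGE (left, split by marker sums) and in POA cells captured on microfluidic chips (right, Gabrd not analysed); bars start at 0 and thin lines are exact Poisson 95% intervals. Gabra5 reaches 21.8 CPM in post-mitotic-like POA droplet cells and 26.6 CPM in tdTOM+/GFP+ cells, against 4.62 CPM in post-mitotic-like CGE cells and 2.46 CPM in FlashTag+ cells.

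Among the other subunits of the family, Gabrg3, a gamma subunit, stood at 37.5 CPM in tdTOM+/GFP+ cells and 4.72 CPM in FlashTag+ cells. There 3 of 4 other subunits with at least 10 CPM were past the fold on the tdTOM+/GFP+ side, against 7.53% of all genes. Their median log2 fold was 1.79, against 1.52 over the members. On the post-mitotic-like side 2 of 2 were past the fold in the POA and 1 of 2 in the CGE. Over all genes these shares were 2.69% and 5.12%. The embryonic rise was thus not particular to the members. Between POA and CGE 0 of 2 were past the fold, against 2.13% and 1.24% of all genes. Of the 11 or 12 inhibitory synapse genes with at least 10 CPM, 0 of 12 were past the fold between POA stages, 2 of 11 were higher in post-mitotic-like CGE cells (Slitrk3 and Iqsec3), 0 of 12 differed past the fold between POA and CGE, and 4 of 11 were higher in tdTOM+/GFP+ cells (Gphn, Lhfpl4, Shisa7 and Iqsec3). Over all genes 5.12% were past the fold on the post-mitotic-like side in the CGE and 7.53% on the tdTOM+/GFP+ side. Of the GABA-B genes, 0 were past the fold in any of the 4 embryonic comparisons.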

How the data were processed

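Deposited tables of raw counts per gene and cell were used. Per the labels and methods, the authors aligned reads of the microfluidic (C1) chips to GRCm38, counted molecular identifiers per gene with the strand taken into account, excluded wells with doublets or no cell from images, and made the droplet tables with Cell Ranger, with filters not repeated here. The P15, P30 and E14.5 tables hold different sets of genes (11979 genes have a row at both P15 and P30), so folds were computed only within a table or, for POA against CGE and tdTOM+/GFP+ against FlashTag+ cells, between tables each scaled to its own total, and P15 and P30 levels were only set side by side. 28 postnatal C1 cells held fewer than 100000 counts and were kept in the sums. The tables held 0 columns of values that were not used.

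Counts of the cells of a group were summed and divided by the total of the group (CPM). Intervals are exact (Poisson for counts, Clopper-Pearson for shares, 95%). No test was run: no label names an animal, each group was taken as 1 sample, and the subtype labels rest on expression. Every fold was computed over the whole table. Genes named beside the members come from 3 lists (other subunits, inhibitory synapse, GABA-B receptor), where they passed the fold, and from the 3 genes with the highest Pearson r of log2(CPM + 10) centred within an age. Some genes that this rule picks are not reported here. Members and lists were chosen with earlier results of these data known. Droplet cells whose summed counts of Hes1, Hes5, Nes, Fabp7, Sox9, Mki67 and Top2a exceeded those of Gad1, Gad2, Dlx5, Dlx6, Dcx, Stmn2 and Tubb3 were taken as progenitor-like, and those with the opposite as post-mitotic-like. No doublet caller was run on the droplets. The thinning depth was the lowest 10% point of the depth of the cells compared. The fold script was tested on simulated data. The scripts ran under Python 3.11.15 (pandas 2.3.3, numpy 2.4.6, matplotlib 3.10.9, scipy 1.17.1).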

Additional observations from a re-analysis of the deposited data

Results flagged for a closer look

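The log2 fold changed sign between P15 and P30, with both counting intervals clear of 0, for 3 members, and these differences between ages were not tested. Counting intervals leave out the spread between cells and animals, so they cannot decide whether a sign differs. Gabra2 between Dock5+NGCs and Lsp1+NGCs was -0.41 at P15 and 1.18 at P30, but 0.01 at P30 with labelled cells of both sorts. Gabra4 between the same subtypes was 0.68 at P15 and -0.39 at P30. The P30 value of Gabra4 kept its sign in 10 of 11 settings and was 0.15 in chip rows 21 to 40. Gabrb1 between NGCs and Vip cells was -0.14 at P15 and 0.36 at P30, and between NGCs and other Lamp5 cells it was 0.55 at P15 and -0.59 at P30. Against Vip cells the sign of Gabrb1 held in 11 of 13 settings at each age. It was 0.58 at P15 with both from the tdTOM+ sort. At P30 it was -0.77 with Lsp1 labelled cells of the tdTOM- sort in place of NGCs. Against other Lamp5 cells at P15 the sign held in 12 of 13 settings, with -0.12 when both came from the tdTOM+ sort. Gabrb2 between NGCs and other Lamp5 cells was 0.65 at P15 and -0.03 at P30, where its counting interval spans 0. The pairs share the NGC cells, and P15 and P30 cells lie in separate tables with different sets of genes.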

How the results depend on the processing

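No paired analysis was possible because no result comes from a test and the replicate numbers in the labels only name cells. Values within the PSeq numbers of the patched cells, chosen after seeing the data, stand in the report. Of 122 counts of members past the fold under alternative settings, 96 stayed within 1.5 times the reported count, and of 844 folds of single members 502 stayed within the counting interval of the reported value, 339 moved outside it and 3 changed sign from a value past the fold: Gabra5 between NGCs and Vip cells at P30 with both from the tdTOM+ sort (-0.45), Gabra5 between NGCs and other Lamp5 cells at P15 in chip rows 1 to 20 (-0.48), and Gabra2 between NGCs and other Lamp5 cells at P30 with Lsp1 labelled cells of the tdTOM- sort in place of NGCs (0.10). With 100 CPM added, which shrinks folds by construction, 1 member was past the fold between the NGC subtypes at P15, 0 at P30 and 0 in patch-seq, 1 between NGCs and Vip cells at P15 and 1 at P30, 0 between NGCs and other Lamp5 cells at P30, and 0 in each of the 4 embryonic comparisons. With 1 CPM added, 2 members were past the fold between POA and CGE. Requiring 50 CPM gave 1 member in patch-seq, 3 between NGCs and Vip cells at P30 and 0 in each embryonic comparison. The mean CPM of single cells gave 1 between the NGC subtypes at P15 and 0 in patch-seq, and thinned sums gave 1 at P15. All labelled cells of both sorts gave 1 between the NGC subtypes at P15, 1 at P30 and 1 between NGCs and other Lamp5 cells at P30. Chip rows 21 to 40 gave 3 between NGCs and Vip cells and 1 between NGCs and other Lamp5 cells at P30, and taking both from the tdTOM+ sort gave 3 between NGCs and Vip cells at P30. Shares over all genes under these settings are not given. The counts therefore show only how the reported counts moved and are not results about the members. The cause of these changes was not tested. Gabrd stayed higher in NGCs than in Vip cells under all settings run, from 1.88 to 4.56 at P15 and from 0.81 to 3.19 at P30. Gabrd gave 1 count in the POA library and 2 in the CGE library.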

Other observations

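Cells with an inconclusive subtype label entered no comparison. Their Gabrd level was 152 CPM in the tdTOM+ sort (85 cells) and 74.5 CPM in the tdTOM- sort (81 cells) at P15, and 50.2 and 19.8 CPM (154 and 156 cells) at P30. Gabra5 in the same cells was 33.8 and 50.9 CPM at P15 and 27.4 and 24.0 CPM at P30, and Gabra2 was 161 and 224 CPM at P15 and 100.1 and 175 CPM at P30. Cells labelled Sncg, another class of interneurons, held 352 CPM of Gabra2 at P15 (10 cells of the tdTOM- sort) and 217 CPM at P30 (25 cells), and 2.46 and 0.742 CPM of Gabra5. The Gabrb1 level of Vip Igfbp6 Pltp cells at P15, 534 CPM over 13 cells of both sorts with no more than 21.1% of the counts in 1 cell, was the highest of this gene in a subtype of at least 5 cells, and the same label held 77.8 CPM at P30 (8 cells).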
